A study of Mus musculus with 8 samples.

Results

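The 10 genes described here encode proteins known for taking part in the response of muscle cells to mechanical load. Most of these proteins sit at the Z-disc, the boundary of the muscle sarcomere, or on the elastic spring of titin. The Xin repeat proteins lie mainly at the intercalated discs. The genes are 3 muscle ankyrin repeat genes (Ankrd1, Ankrd2 and Ankrd23), 3 genes of LIM-only proteins of the FHL family (Fhl1, Fhl2 and Fhl3), the LIM protein gene Csrp3, the titin cap gene Tcap and the 2 Xin repeat genes Xirp1 and Xirp2. They were chosen by name, and each matched 1 of the 49584 features counted. The series asked what TEFM, the elongation factor of mitochondrial transcription, does for mitochondrial gene expression. Total RNA of crude mitochondria from whole mouse hearts was sequenced in 4 control mice (L/L, genotype field Tefm +/+) and 4 knockout mice (L/L, cre, genotype field Tefm -/-). Both groups are taken to carry loxP-flanked Tefm alleles, and cre came from the muscle creatinine kinase promoter, as the labels spell it. That promoter is active in cardiac and skeletal muscle cells, so other cells of the heart are taken to keep Tefm. The sources used here do not give the age and sex of the mice.

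Titin is a giant protein that spans from the Z-disc to the middle of the sarcomere and works as a molecular spring. At the Z-disc its end is tied by telethonin, the product of Tcap, which also binds the LIM protein encoded by Csrp3. Along the spring, the ankyrin repeat proteins bind one segment and FHL proteins another. Several of these proteins can also move to the nucleus, where they act as transcription cofactors, and Ankrd1 is a widely used marker of heart muscle under load. Xin repeat proteins bind and stabilise actin filaments, mainly at the intercalated discs that join heart muscle cells.

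Library totals were 21108165 to 27403415 counts. RNA of mitochondrial DNA made up 72.3% to 74.0% of the counts in controls and 38.7% to 59.3% in knockouts, with the highest knockout share in replicate 1, and nuclear genes held 6825329 to 7596951 counts per control library and 10331611 to 13204546 per knockout library. Levels are given as CPM (counts scaled to library size) after TMM, a method that sets the libraries level on the bulk of their genes, so a change is relative to nuclear RNA. In RNA of crude mitochondria and of whole tissue, fewer cells of a type, less RNA per cell and a different amount of co-purified RNA cannot be told apart. Tefm itself held 110, 117, 106 and 144 counts in controls and 166, 233, 230 and 245 in knockouts (log2 fold change 0.14, SE 0.11, edgeR adjusted p = 0.324). These counts cover the whole gene, and the sources used here do not name the deleted exon, so they do not check the genotype. The skeletal muscle markers summed to 4.87 to 5.71 CPM in controls and 1.16 to 1.58 in knockouts, and Myh4 held no count, against sums of 16819 to 17630 and 8804 to 13983 CPM for the cardiomyocyte markers. Of the latter 2 of 10 rose and 6 fell, and knockout replicate 1 held the highest sum of the knockouts. Of 6 endothelial markers 3 fell, as did 3 of 7 macrophage markers and 2 of 5 smooth muscle markers, and none of these rose. For comparison, 23.9% of all genes tested fell and 26.1% rose. The sum of the atrial markers, 28.6 to 49.5 CPM in controls and 913.5 to 2133 in knockouts, was nearly all Nppa (33.7 ± 10.3 and 1568 ± 512 CPM; SD, n = 4 each), a gene also known to be switched on in stressed ventricle. Bmp10 rose as well, to 6.71 CPM, Myl4 did not pass (0.78, edgeR adjusted p = 0.0781), and Myl7 and Sln held at most 4 and 1 counts in any library. The part of these shifts in the results was not tested.

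Of the 10 genes, 9 had enough counts to be tested, and they went in both directions. Ankrd1, Fhl1, Xirp2 and Xirp1 rose in the knockout libraries, Fhl2 and Tcap fell, and Csrp3, Ankrd23 and Fhl3 did not pass the threshold (edgeR quasi-likelihood test, Benjamini-Hochberg adjusted p under 0.05). Over all 17891 genes tested, 26.1% rose and 23.9% fell, so that 50% passed in either direction. All knockout libraries lay above all controls for 23.9% of the genes tested, and below all controls for 21.5%. The median log2 fold change was 0.08 over the 9 genes and -0.01 over all genes tested. Ankrd1, Fhl1 and Xirp2 rose at least 4-fold, which 2.04% of all genes tested did. The genes were chosen with results on these libraries known, so these counts describe them and are no test of the set. The count of members that fell was 1 with DESeq2 and without control replicate 1 or 2 or knockout replicate 2, 3 or 4, where the call of Tcap was lost.

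**Figure D1:**
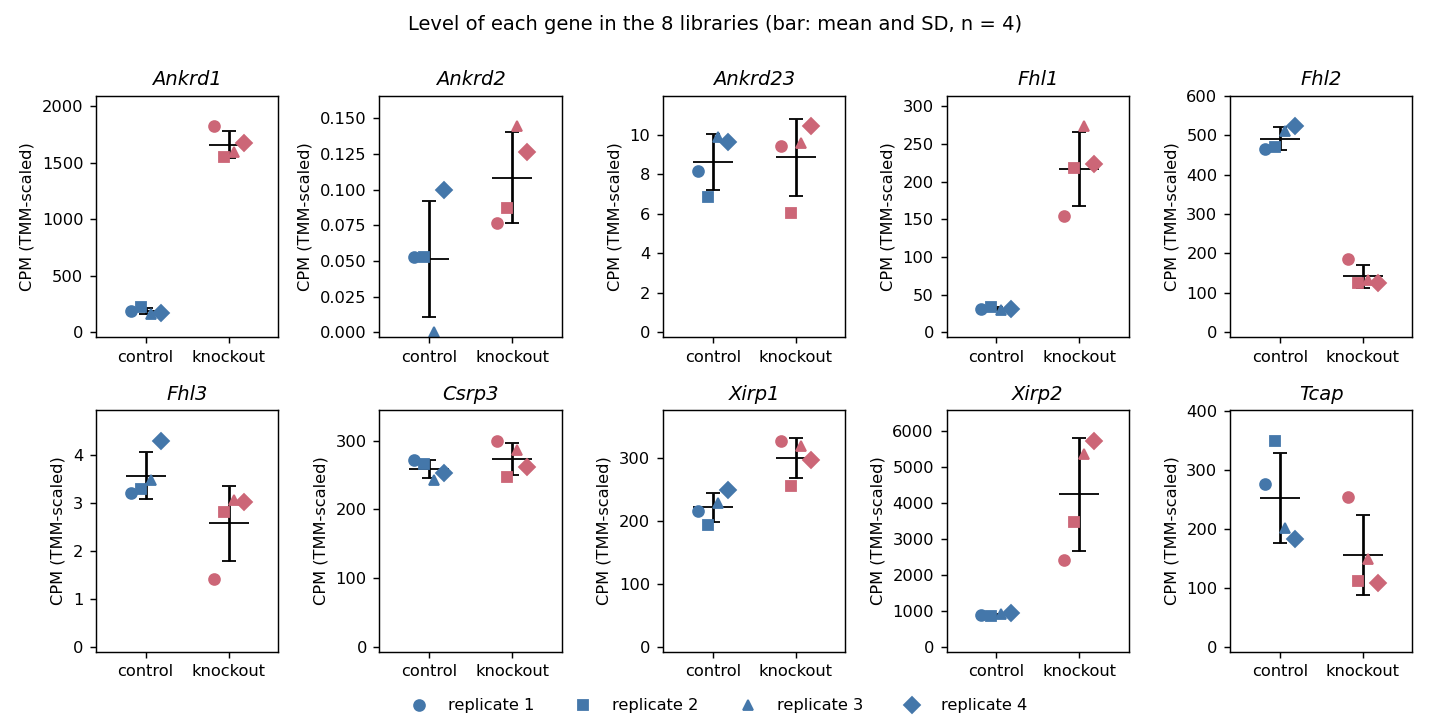
Level of each of the 10 genes in CPM (TMM-scaled, linear axes that differ between panels) in 4 control and 4 knockout libraries; each point is 1 library and bars give the mean and SD. Ankrd1, Fhl1, Xirp2 and Xirp1 were higher in all knockouts than in any control and Fhl2 and Fhl3 were lower in all knockouts, while Ankrd2, Ankrd23, Csrp3 and Tcap overlapped. Of all genes tested, 23.9% were higher in all knockouts than in any control and 21.5% were lower in all.

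Among the ankyrin repeat genes the change was that of Ankrd1. Its protein binds the titin spring and also represses transcription in the nucleus. Ankrd1 (ENSMUSG00000024803.8, chromosome 19, 36111961 to 36120099 in GRCm38, minus strand) stood at 190.4, 223.6, 161.7 and 166.4 CPM in controls 1 to 4. In knockouts 1 to 4 it stood at 1819, 1546, 1596 and 1671 CPM. Every knockout library lay far above every control, and the 4 knockouts were close to each other. Ankrd1 thus rose 8.94-fold (log2 fold change 3.16, SE 0.12, 95% interval 2.90 to 3.42, edgeR adjusted p = 2.04e-10). Its share of all nuclear counts went from 0.0495% ± 0.00807 to 0.437% ± 0.0184 (SD, n = 4 each). Knockout replicate 1, which stood apart in mitochondrial RNA, held the highest level of Ankrd1 among the knockouts.

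Ankrd23, which encodes a related ankyrin repeat protein of heart and skeletal muscle, did not pass the test. Control libraries held 8.64 ± 1.41 CPM and knockout libraries 8.88 ± 1.95 CPM (SD, n = 4 each), and the groups overlapped. The log2 fold change was 0.04, with a 95% interval of -0.31 to 0.39. The annotated gene Gm42417 shares exons of Ankrd23 on the same strand and held no count, and the sources used here do not say how reads in shared exons were assigned. Ankrd2, the family member known mainly from slow skeletal muscle, was almost undetected, with 1, 1, 0 and 2 counts in controls and 2, 3, 5 and 4 in knockouts. It was too low to test, and no fold is given.

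Ratios between genes within 1 library do not depend on how libraries are scaled to each other. The log2 ratio of Ankrd1 to Ankrd23 counts was 4.54, 5.02, 4.03 and 4.11 in controls and 7.59, 8.0015, 7.37 and 7.32 in knockouts. The groups did not overlap, and the ratio was 8.86-fold higher in knockouts (log2 difference 3.15; p = 0.0286 in a two-sided exact permutation test, which cannot go lower with 70 relabelings; 0.0429 when adjusted by Benjamini-Hochberg for the 6 ratios compared). Per exonic length, Ankrd1 made up 95.1% ± 1.37 of the 3 ankyrin repeat genes in control libraries and 99.4% ± 0.116 in knockout libraries (SD, n = 4 each). The ratio of Ankrd1 to Ankrd2 was also higher in all knockouts (log2 difference 2.33; exact permutation test, p = 0.0286; adjusted p = 0.0429), but it rests on the few counts of Ankrd2. With 5 in place of 0.5 added to each count the log2 difference was 3.40, so its size depends on the added count. With 1 library left out, p was 0.0571 for each ratio that passed here and further on, the smallest that the remaining libraries allow.

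The start region of Ankrd1 is shown because the gene rose most and because the targets of YAP and TAZ, cofactors of the TEAD factors that bind the M-CAT motif (CATTCC, searched on both strands), are described further on. The window is the 250 bases before the RefSeq start of Ankrd1 (GRCm38.p6, minus strand), which lies 66 bases from the nearest GENCODE start. In it the M-CAT motif occurred on the opposite strand at -210 to -205 and at -123 to -118, without overlap with another motif searched. The window lies inside an exon of another annotated transcript of Ankrd1, so that only 30 bases around each match are given, with the motif in capitals. They lie at chr19:36120037-36120066 and chr19:36119950-36119979.
Ankrd1 at -222 to -193: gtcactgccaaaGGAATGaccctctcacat
Ankrd1 at -135 to -106: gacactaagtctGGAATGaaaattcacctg
Of 32851 RefSeq windows of this length 12.6% held at least 1 such match and 1.02% held 2 or more. A match describes the letters and does not show binding. RefSeq windows were found for 8 of the 10 genes, 12 windows in all. In the others M-CAT occurred once, in the second window of Ankrd23.

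The FHL family changed its composition. Fhl1 and Fhl2 encode proteins made of LIM zinc-finger domains, which bind the titin spring and signalling enzymes, and Fhl2 is the form that is most abundant in the adult heart. Fhl1 (ENSMUSG00000023092.16, chromosome X, 56731787 to 56793346, plus strand) stood at 30.9, 33.7, 28.9 and 30.6 CPM in controls. In knockouts it stood at 154.0, 218.4, 273.4 and 223.2 CPM. All knockouts lay above all controls, and replicate 1 was the lowest of them. Fhl1 rose (log2 fold change 2.81, SE 0.14, 95% interval 2.50 to 3.11, edgeR adjusted p = 2.67e-09).

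Fhl2 (ENSMUSG00000008136.14, chromosome 1, 43123074 to 43196984, minus strand) moved the other way. Its level was 464.7, 469.2, 510.3 and 522.2 CPM in controls and 185.0, 125.7, 132.3 and 124.8 CPM in knockouts. All knockouts were below all controls, and replicate 1 again lay nearest to them. The log2 fold change of Fhl2 was -1.79 (SE 0.12, 95% interval -2.05 to -1.53, edgeR adjusted p = 4.26e-08), a level 3.46-fold lower. The fall of Fhl2 passed the threshold in the other scalings as well: its log2 fold change was -0.84 with library totals and -1.26 with cardiomyocyte markers as the reference.

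The log2 ratio of Fhl1 to Fhl2 counts went from -3.91, -3.80, -4.14 and -4.09 in controls to -0.26, 0.80, 1.05 and 0.84 in knockouts. This ratio was 24.1-fold higher in knockouts (log2 difference 4.59; exact permutation test, p = 0.0286; adjusted p = 0.0429), and the groups did not overlap. Per exonic length Fhl1 made up 3.11% ± 0.335 of the family in controls and 43.5% ± 9.39 in knockouts, and Fhl2 96.1% ± 0.315 and 55.4% ± 9.74 (SD, n = 4 each). Among knockouts the share of Fhl1 was 29.7% in replicate 1 and 46.4% to 50.7% in the others.

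Fhl3, a family member known mainly from skeletal muscle, was low in both groups, with control libraries at 3.57 ± 0.489 CPM and knockout libraries at 2.58 ± 0.782 CPM (SD, n = 4 each). Its knockout libraries all lay below its controls, which was so for 21.5% of all genes tested, but it did not pass the threshold (log2 fold change -0.46, SE 0.21, edgeR adjusted p = 0.0857). Its sign turned to 0.57 with library totals and 0.14 with cardiomyocyte markers, neither of which passed. The ratio of Fhl3 to Fhl2 did not pass either (log2 difference 1.28; exact permutation test, p = 0.0571; adjusted p = 0.0686), since knockout replicate 1, at -7.01, lay among the controls, at -7.18 to -6.92.

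**Figure D2:**
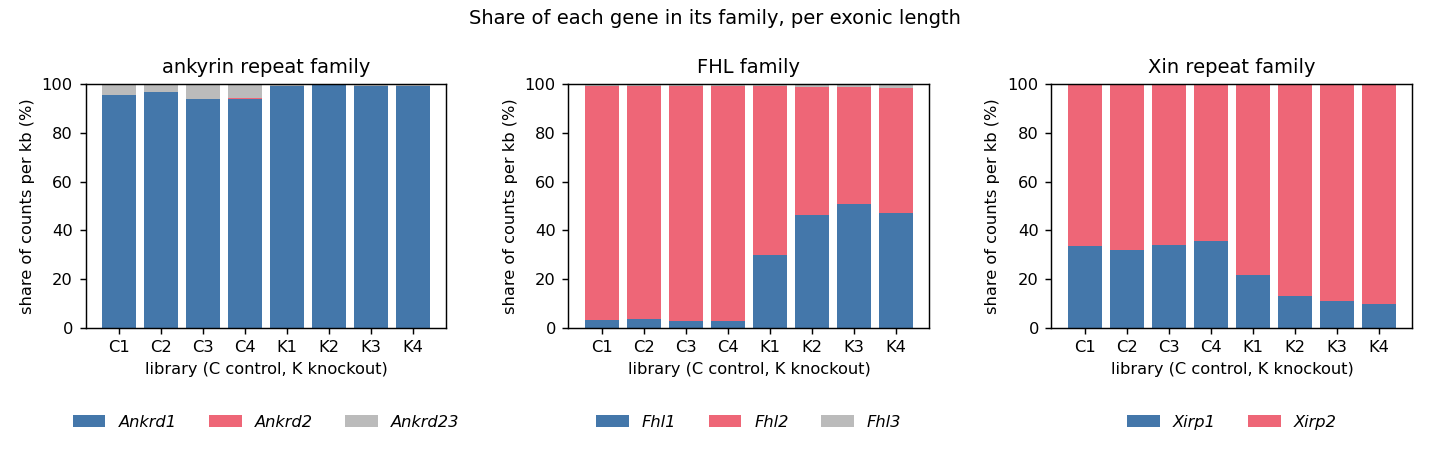
Share of each gene in the counts per kilobase of exonic sequence of its family, in percent, for 4 control (C1 to C4) and 4 knockout (K1 to K4) libraries. Fhl1 took 29.7% to 50.7% of the FHL family in knockouts against 2.79% to 3.51% in controls, and Xirp2 took 78.2% to 90.4% of the Xin repeat pair against 64.6% to 68.2%.

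Start regions of Fhl1 and Fhl2 are shown because the genes moved in opposite directions while windows of both hold a CArG box, the motif bound by serum response factor (searched by its consensus on both strands), which 1.47% of all RefSeq windows hold. RefSeq gives each gene 2 starts. Both windows of Fhl2 held a CArG box, the first at -96 to -87 and the second at -31 to -22, and the first window of Fhl1 held 1 at -102 to -93. The RefSeq start of that Fhl1 window lies 40 bases from the nearest GENCODE start, and the bases after it matched no GENCODE transcript, unlike those of the other 11 windows. The first windows of both genes overlap annotated untranslated sequence and are given as 30 bases only, at chrX:56779571-56779600 (plus strand) and chr1:43196838-43196867 (minus strand). The second window of Fhl2 is given whole, at chr1:43163962-43164211 (minus strand, GRCm38.p6). Capitals mark the CArG box.
Fhl1, first start: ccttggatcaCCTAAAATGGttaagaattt
Fhl2, first start: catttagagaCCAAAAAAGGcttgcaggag
Fhl2, second start: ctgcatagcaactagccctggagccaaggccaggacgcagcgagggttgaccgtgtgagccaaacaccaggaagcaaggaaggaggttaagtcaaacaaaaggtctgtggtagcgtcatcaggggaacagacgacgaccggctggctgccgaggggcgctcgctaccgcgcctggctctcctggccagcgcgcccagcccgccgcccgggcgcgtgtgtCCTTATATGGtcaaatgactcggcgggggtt
Counts per gene do not tell which start was used, and the motif was thus found beside a gene that rose and beside one that fell.

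The 2 genes at the titin anchor of the Z-disc changed little or unevenly. Csrp3 (ENSMUSG00000030470.15, chromosome 7), whose LIM protein is needed for normal heart muscle structure, stood at 271.2, 266.1, 243.4 and 253.4 CPM in controls and 298.9, 247.0, 286.1 and 261.6 CPM in knockouts. The groups overlapped, and Csrp3 did not pass (log2 fold change 0.08, SE 0.08, 95% interval -0.10 to 0.26, edgeR adjusted p = 0.439). With cardiomyocyte markers as the reference it was 0.64 and with library totals 1.06, and both passed.

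Tcap (ENSMUSG00000007877.2, chromosome 11, 98383811 to 98384953, plus strand), which encodes the titin cap, varied more than any other tested member within the groups. Its level was 275.9, 348.5, 201.7 and 183.5 CPM in controls and 254.3, 112.1, 149.8 and 109.1 CPM in knockouts. The groups overlapped, since knockout replicate 1 lay above controls 3 and 4. Tcap passed the threshold in edgeR (log2 fold change -0.69, SE 0.25, adjusted p = 0.0331), but the call was lost under 8 of 15 alternatives, among them DESeq2 (-0.67, adjusted p = 0.166) and leaving out control replicate 1 (-0.65, adjusted p = 0.0792) or 2 (-0.50, 0.129) or knockout replicate 2 (-0.56, 0.0941), 3 (-0.67, 0.0718) or 4 (-0.55, 0.0971). Without knockout replicate 1 it was -1.04 (adjusted p = 5.85e-05). It was -0.21 with cardiomyocyte markers and 0.22 with library totals as the scaling. The ratio of Csrp3 to Tcap did not pass (log2 difference 0.81; exact permutation test, p = 0.0857; adjusted p = 0.0857).

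Both Xin repeat genes rose, Xirp2 much more than Xirp1. Xirp2 (ENSMUSG00000027022.13, chromosome 2, 67446002 to 67526614, plus strand) stood at 880.3, 854.6, 907.8 and 933.1 CPM in controls. In knockouts 1 to 4 it stood at 2407, 3469, 5370 and 5714 CPM. The controls were tight and the knockouts spread widely, with replicate 1 lowest but still above every control. Xirp2 rose 4.74-fold (log2 fold change 2.25, SE 0.22, 95% interval 1.78 to 2.71, edgeR adjusted p = 1.43e-06). Of all nuclear counts, Xirp2 took 0.238% ± 0.00686 in control and 1.12% ± 0.418 in knockout libraries (SD, n = 4 each).

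An annotated antisense gene, Gm13601, overlaps exons of Xirp2 on the other strand. It held 412, 438, 483 and 533 counts in controls and 1626, 3151, 4749 and 4536 in knockouts (log2 fold change 2.15, SE 0.21, edgeR adjusted p = 1.53e-06). The sources used here do not say whether the counting used strand, so reads of Xirp2 and of this gene cannot be told apart.

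Xirp1 (ENSMUSG00000079243.3, chromosome 9, 120013755 to 120023598, minus strand) stood at 215.5, 193.8, 229.4 and 249.1 CPM in controls and at 326.9, 256.6, 320.2 and 296.7 CPM in knockouts. All knockouts were above all controls, by a small margin. Xirp1 rose 1.35-fold (log2 fold change 0.43, SE 0.10, edgeR adjusted p = 0.00219). The log2 ratio of Xirp1 to Xirp2 was -2.03, -2.14, -1.98 and -1.90 in controls and -2.88, -3.76, -4.07 and -4.27 in knockouts, a difference of -1.73 without overlap (exact permutation test, p = 0.0286; adjusted p = 0.0429).

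The window before the start of Xirp2 is shown whole because the gene gave the most counts of the members and its window held a MEF2 site, the motif of a family of muscle transcription factors (searched by its consensus on both strands). It lies at chr2:67445752-67446001 (plus strand, GRCm38.p6), and capitals mark the MEF2 site at -74 to -65.
Xirp2: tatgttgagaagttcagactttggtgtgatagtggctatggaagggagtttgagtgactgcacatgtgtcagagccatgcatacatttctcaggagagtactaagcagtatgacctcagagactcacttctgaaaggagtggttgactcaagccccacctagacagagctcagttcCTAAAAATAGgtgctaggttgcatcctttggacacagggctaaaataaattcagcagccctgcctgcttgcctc
A MEF2 site was found in 2.92% of all RefSeq windows, and among those of the members also in the first of Fhl2, where it overlaps a TATA box. No window of the members held the ATF4 response element (TGATGNAA on either strand), which 3.45% of all windows held.

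The order of the genes by level changed. In CPM per kilobase of exonic length, Tcap (266.3 ± 79.7) and Fhl2 (259.2 ± 15.2) led in controls, and their ranges overlapped (SD, n = 4 each). Csrp3 (96.8 ± 4.71), Xirp2 (74.6 ± 2.84) and Ankrd1 (64.3 ± 9.81) followed, of which Xirp2 and Ankrd1 overlapped, and then Xirp1 (38.0 ± 3.99), Fhl1 (8.36 ± 0.531), Ankrd23 (3.20 ± 0.521), Fhl3 (2.12 ± 0.291) and Ankrd2 (0.045 ± 0.0358). Here Ankrd23 and Fhl3 overlapped.

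In knockouts Ankrd1 led (574.6 ± 41.2 CPM per kilobase), without overlap with Xirp2 (353.9 ± 131.1), which overlapped with Tcap (164.9 ± 71.6; SD, n = 4 each). Tcap did not overlap with Csrp3 (102.4 ± 8.78), which came next. Csrp3 overlapped with Fhl2 (74.8 ± 15.2), Fhl2 with Fhl1 (58.5 ± 13.2) and Fhl1 with Xirp1 (51.4 ± 5.44). Ankrd23, Fhl3 and Ankrd2 stayed last in that order, and Xirp1 did not overlap with Ankrd23. Among 21860 nuclear protein-coding genes ranked per length, Ankrd1 went from place 131 to place 8, Xirp2 from 108 to 15 and Fhl1 from 1304 to 159. Fhl2 went from place 21 to place 122 and Tcap from 18 to 44.

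The rises of Ankrd1, Fhl1, Xirp2 and Xirp1 and the fall of Fhl2 passed the threshold under every one of the 15 alternatives run, while the calls of Csrp3, Ankrd23 and Tcap depended on what the libraries were scaled to. With the cardiomyocyte markers as the reference, 6 of the 9 genes rose and 1 fell, and Ankrd23 was 0.58 (adjusted p = 0.0123). When libraries were scaled by their totals alone, the counts were also 6 and 1, and Ankrd23 was 1.02 (adjusted p = 4.05e-05). These scalings moved the median log2 fold change of all genes tested to 0.55 and 0.97, and 91.0% and 96.7% of all calls were then higher, against 52.2% with TMM. Relative to these medians, Csrp3 and Ankrd23 lay within 0.1 log2 units of the bulk of genes in all 3 scalings.

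**Figure D3:**
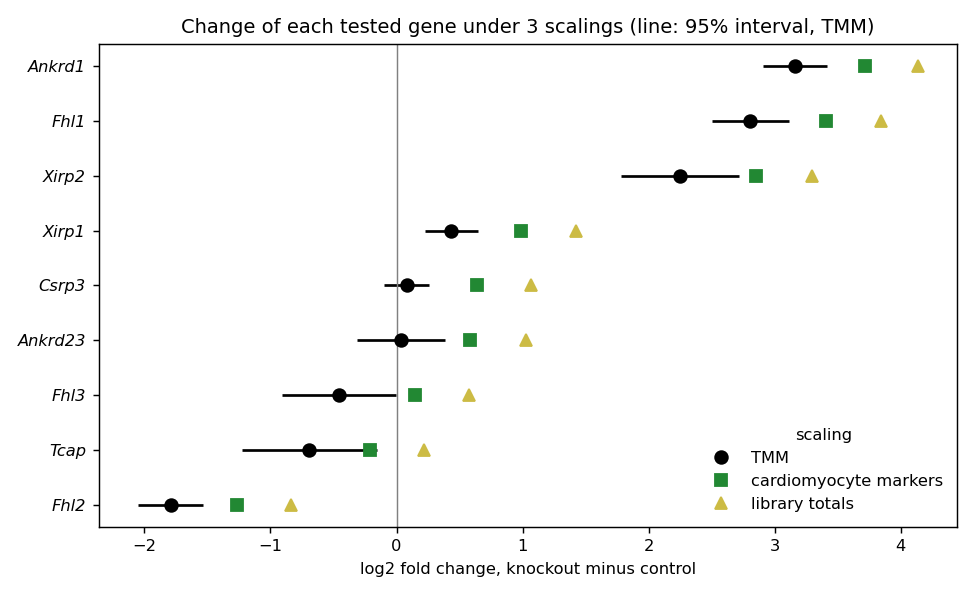
Log2 fold change (knockout minus control) of the 9 tested genes with TMM scaling (circles, with 95% intervals), with cardiomyocyte markers as the reference (squares) and with library totals (triangles). Fhl2 stayed below 0 and Ankrd1, Fhl1, Xirp2 and Xirp1 above 0 in all 3, whereas Fhl3 was below 0 with TMM alone and Tcap was above 0 with library totals alone.

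In the authors' deposited table the log2 fold changes were 3.15 for Ankrd1, 2.78 for Fhl1, 2.15 for Xirp2, 0.45 for Xirp1 and -1.76 for Fhl2. The authors' deposited table gives adjusted p-values of 0.168 for Tcap (-0.61), 0.131 for Fhl3 (-0.43), 0.386 for Csrp3 (0.10) and 0.858 for Ankrd23 (0.05). It also gives 0.486 for Ankrd2, which had too few counts to be tested here.

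The genes most like the extremes in their profile over the 8 libraries were named by the root mean square difference of log2 CPM (0.5 CPM added before the log), centred on the control mean, among 12555 other tested protein-coding genes. Nearest to Ankrd1 were Arfgef3 (difference 0.103), Cyb5r1 (0.150), Aldh18a1 (0.160), the glycyl-tRNA synthetase gene Gars (0.188) and Otub2 (0.231). The added 0.5 CPM compresses the change of genes with low levels: the fitted log2 fold change of Arfgef3 was 4.78 (SE 0.22), against 3.16 for Ankrd1, so the 2 genes are alike on the compressed scale and not in fold. Aldh18a1 encodes an enzyme of proline synthesis, and rose with a log2 fold change of 3.40 (SE 0.10, edgeR adjusted p = 2.87e-11). Nearest to Fhl2 were Ryr2, the calcium release channel of heart muscle (0.079), Ivd, an enzyme of leucine breakdown (0.107), Lpin1 (0.109), Cmya5 (0.128) and Tcaim (0.129). Ryr2 is also among the 10 cardiomyocyte markers used as a reference, of which 6 fell and 2 rose. Ryr2 fell with a log2 fold change of -1.76 (SE 0.14, edgeR adjusted p = 2.21e-07), and Cmya5, whose protein lies at the Z-disc, with -1.78 (SE 0.17, adjusted p = 1.30e-06). These are descriptions of likeness over 8 libraries that share 1 contrast.

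Other Z-disc and titin structure genes also went in both directions. Of 26 tested members of that list 10 rose and 10 fell, with a median log2 fold change of -0.14, against -0.01 over all genes. Of all genes tested 26.1% rose and 23.9% fell. The actin cross-linker gene Flnc rose 2.95-fold (log2 fold change 1.56, SE 0.10, edgeR adjusted p = 1.78e-08), from 193.3 ± 16.0 to 570.0 ± 59.1 CPM (SD, n = 4 each). Synpo2l rose 4.20-fold (2.07, SE 0.12), and its relative Synpo2 fell (-1.48, SE 0.09), both encoding synaptopodin-type proteins of the Z-disc. Myot, which encodes the actin-bundling protein myotilin, fell most of the list (-3.14, SE 0.22, edgeR adjusted p = 6.66e-08). Without knockout replicate 4, 6 of the list fell, and without knockout replicate 1, 14.

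Titin itself, named here after its value was seen because several of the members bind it, was among the most abundant nuclear RNAs. Ttn stood at 45105 ± 1160 CPM in control and 33383 ± 2737 CPM in knockout libraries (SD, n = 4 each; log2 fold change -0.43, SE 0.15, edgeR adjusted p = 0.0242). The direction turned to 0.55 with library totals and to 0.12 with cardiomyocyte markers, and the call was lost without any 1 of the controls (adjusted p = 0.0504 to 0.0712) or without knockout replicate 4 (0.0517).

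Of 10 genes of titin-linked turnover and signalling 4 rose and 4 fell, against 26.1% and 23.9% of all genes tested. The median of the list was -0.03. Sqstm1, an autophagy receptor that takes part in signalling from the titin kinase, rose 5.75-fold (log2 fold change 2.52, SE 0.10, edgeR adjusted p = 3.15e-10). The ubiquitin ligase gene Trim54 rose 2.80-fold (1.49, SE 0.09) and the methyltransferase gene Smyd2 1.85-fold (0.88, SE 0.11). Capn3, a protease gene known from skeletal muscle, fell (-2.11, SE 0.30) at a low level of 1.74 ± 0.337 CPM in controls (SD, n = 4).

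Calcineurin and NFAT make up a phosphatase pathway with parts at the Z-disc. Of 9 genes of it 3 rose and 4 fell (median -0.20), against 26.1% and 23.9% of all genes tested. Those that rose most were the calcineurin regulators Rcan1 (2.13-fold, log2 fold change 1.09, SE 0.15) and Rcan2 (1.95-fold, 0.96, SE 0.10). The transcription factor genes Nfatc2 (-1.43, SE 0.20) and Nfatc1 (-0.40, SE 0.10) fell. With library totals Nfatc2 was -0.45 and did not pass (edgeR adjusted p = 0.0679), and with cardiomyocyte markers it was -0.85 and passed. Nfatc1 was 0.61 with library totals and 0.18 with cardiomyocyte markers as the reference.

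Of 12 genes of SRF, its coactivators and targets 3 rose and 3 fell (median 0.06), against 26.1% and 23.9% of all genes tested. The skeletal actin gene Acta1 rose 5.35-fold (log2 fold change 2.42, SE 0.30, edgeR adjusted p = 1.42e-05) and Srf 1.26-fold (0.33, SE 0.08). The coactivator gene Myocd (-1.15, SE 0.17) and the smooth muscle actin gene Acta2 (-1.07, SE 0.15) fell, and both calls were lost with library totals. Acta2 is also one of 5 smooth muscle markers, whose sum ran from 114.4 to 124.1 CPM in controls and from 57.2 to 75.3 CPM in knockouts. Of these Acta2 and Smtn (-1.46, SE 0.09) fell, and Tagln, Cnn1 and Myh11 did not pass (0.26, -0.08 and 0.01). The part of these markers in the falls of the SRF list was not tested.

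Of 13 genes of YAP and TAZ and their targets 6 rose and none fell (median 0.33), against 26.1% and 23.9% of all genes tested. Ctgf, a secreted matrix protein gene, rose 10.9-fold (log2 fold change 3.44, SE 0.15, edgeR adjusted p = 5.30e-10), from 17.8 ± 1.56 to 193.2 ± 43.9 CPM (SD, n = 4 each). Tgfb2 rose 6.36-fold (2.67, SE 0.27), Wwtr1, the gene of TAZ, 1.73-fold (0.79, SE 0.07) and Cyr61 1.34-fold (0.43, SE 0.10). Summed fibroblast markers ran from 250.6 to 261.6 CPM in controls and 252.8 to 486.2 in knockouts, with 4 of 8 higher and none lower. Their part in these rises was not tested. With library totals or cardiomyocyte markers as the scaling, all 13 genes rose, along with most genes tested.

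Close relatives of the members, tested as a list of 7, mostly did not change detectably. Of 6 tested 1 fell and none rose, against 23.9% and 26.1% of all genes tested. The one that fell was Crip2, of another LIM protein (-0.53, SE 0.08, edgeR adjusted p = 0.000149), whose value was 0.45 with library totals and 0.02 with cardiomyocyte markers. Fhl4 was 0.13 (SE 0.34), and Fhl5 held 3 counts in the controls and 0 in the knockouts.

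**Figure D4:**
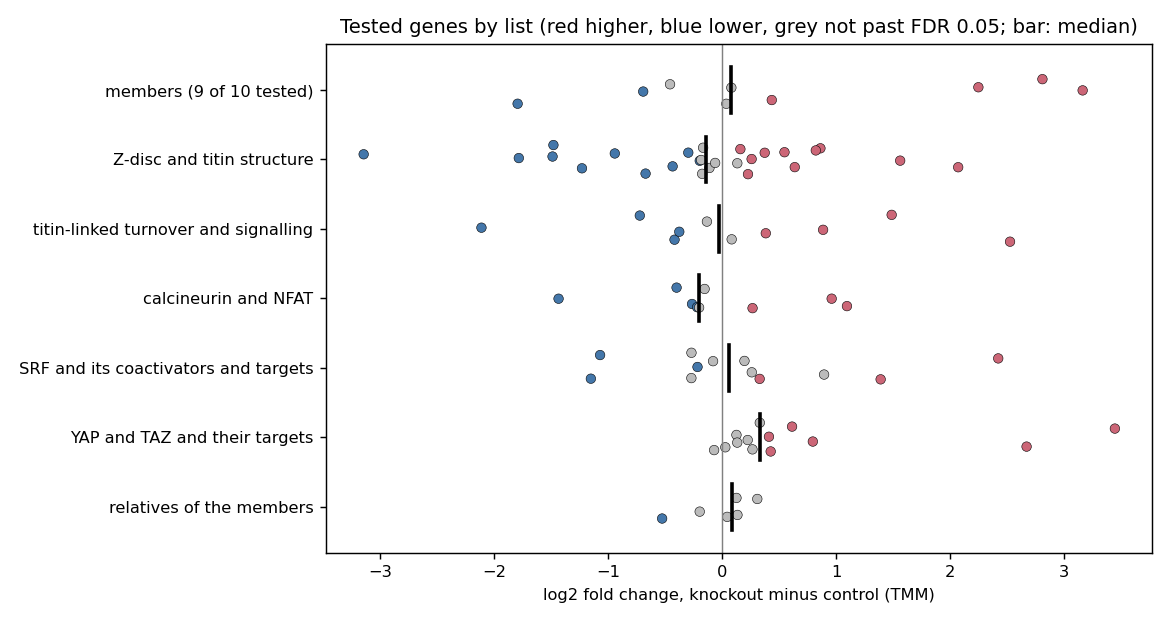
Log2 fold change (knockout minus control, TMM scaling) of each tested gene, by list; red points rose, blue points fell and grey points did not pass an adjusted p of 0.05 in edgeR, and bars mark medians. Medians lay between -0.20 and 0.33. All lists but those of YAP and TAZ and of the relatives held genes that rose and genes that fell. Of all genes tested 26.1% rose and 23.9% fell.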

How the data were processed

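Raw counts per gene, as deposited by the authors, were used for 8 libraries (4 control and 4 knockout mice, from the labels; the series text describes separate mice). The submitters' processing notes list the build mm10 and the tools featureCounts, Bowtie2, bedtools, DESeq2 1.14.1, SAMtools 1.3.1 and R 3.3.2, with no settings. The deposited normalized counts were not used. Mean signal, log2 fold changes, test score and p-values stand in the authors' deposited table, and its log2 fold changes and adjusted p-values were printed beside the tests.

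Counts were tested in edgeR 4.0.16 (R 4.3.3; quasi-likelihood F test, TMM, filterByExpr with a minimum count of 10), adjusted over 17891 genes. Each standard error is the fitted log2 change divided by the root of its F value. The edgeR fit was tested on simulated data in which far fewer genes changed than were called here. That simulation therefore does not test the scaling or the error rate in these libraries. Ratios had 0.5 added to each count and went into exact permutation tests, two-sided (scipy 1.17.1). Alternatives were DESeq2 1.42.0, RLE factors, library totals, the geometric mean of 10 cardiomyocyte markers as reference, no filter, nuclear genes alone, the replicate number as a block and leaving out each library. Positions and exonic lengths (union of exons) are from GENCODE M21 (GRCm38; Ankrd1 and Ankrd2 matched without the version suffix), windows from RefSeq (GRCm38.p6), 250 bases before each start. Named genes were all members, up to 4 called genes by smallest p from each list of pathway genes and relatives, and the 5 nearest profiles to the largest rise and fall. Members and lists were chosen with earlier results of these data known. No 2 libraries of a group agreed within sampling noise (chi-square over degrees of freedom, 2.42 to 124.8). The number of libraries and the spread between mice limit the precision. Figures were drawn with matplotlib 3.10.9.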

Additional observations from a re-analysis of the deposited data

Results flagged for a closer look

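Levels of the 10 genes and the 6 ratios, in each group, made 32 groups of 4 libraries. In 4 of them a library stood apart from the other 3 by Dixon's test at 95%, where chance gives about 1 in 20. The ratios share counts with the levels, so the 32 are not independent and this rate does not show an excess. For Fhl2, knockout replicate 1 stood at 185.0 CPM, against 124.8 to 132.3 in the other knockouts. For Fhl3, knockout replicate 1 stood at 1.41 CPM, against 2.81 to 3.06. The log2 ratio of Fhl3 to Fhl2 was -7.01 in knockout replicate 1, against -5.48 to -5.36, and -6.92 in control replicate 4, against -7.18 to -7.14 in the other controls. Without knockout replicate 1 the log2 fold change of Fhl2 was -1.95 and that of Fhl3 was -0.28, which did not pass (adjusted p = 0.130).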

How the results depend on the processing

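The rises of Ankrd1, Fhl1, Xirp2 and Xirp1 and the fall of Fhl2 kept their direction and call under all 15 alternatives. The number of members that fell was 1 with DESeq2, with library totals and with cardiomyocyte markers, and 1 to 2 when 1 library was left out. With library totals as the only scaling, 19 Z-disc and titin structure genes rose and 4 fell, 8 titin-linked turnover genes rose and 1 fell, 8 calcineurin and NFAT genes rose and 0 fell, 10 SRF genes rose and 0 fell, and 13 YAP and TAZ genes rose. With cardiomyocyte markers, 17 Z-disc genes rose and 5 fell, 1 titin-linked gene fell, 1 calcineurin gene fell, 7 SRF genes rose and 13 YAP and TAZ genes rose. Without a filter, 2 calcineurin genes fell and 6 SRF genes rose. Leaving out 1 library gave 6 to 14 Z-disc genes that fell. Signs turned for Tcap (0.22), Ttn (0.55), Nfatc1 (0.61) and Crip2 (0.45) with library totals and for Ttn (0.12), Nfatc1 (0.18) and Crip2 (0.02) with cardiomyocyte markers. Fhl3, which did not pass, turned to 0.57 and 0.14. With these 2 scalings the median log2 fold change of all genes tested was 0.97 (library totals) and 0.55 (cardiomyocyte markers), against -0.01 with TMM. The cause of the changes between settings was not tested.

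Leaving out 1 library gave log2 differences of 1.99 to 2.70 for the ratio of Ankrd1 to Ankrd2, 3.004 to 3.35 for Ankrd1 to Ankrd23, 4.44 to 4.88 for Fhl1 to Fhl2 and -2.02 to -1.55 for Xirp1 to Xirp2. With the replicate block these ratios, at 2.33, 3.15, 4.59 and -1.73, had an exact sign-flip p of 0.125, the smallest 4 pairs allow. With 5 counts added the ratio of Ankrd1 to Ankrd2 was 3.40. Same-numbered libraries did not deviate together (r = 0.022, -0.0031, 0.024 and 0.0968 across genes, which are not independent replicates), so the numbers were not taken as pairs. With the block 4580 of all genes rose and 4253 fell, and Fhl3 passed (-0.49, adjusted p = 0.0413). Depth limits Ankrd2, with 4 counts over the controls and 14 over the knockouts.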

Other observations

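A processed pseudogene inside Fhl2 on the other strand, Gm8210, shares no exon with it and fell like its host (log2 fold change -1.91, SE 0.14, edgeR adjusted p = 9.41e-08). It held 114, 111, 107 and 118 counts in controls and 47, 59, 54 and 39 in knockouts. The sources used here do not say whether the counting used strand. Reads of Gm8210 and of unspliced Fhl2 RNA thus cannot be told apart. Cx3cr1, a gene of macrophages that spans Xirp1 without sharing exons, did not pass (0.14, SE 0.23, adjusted p = 0.637). Both genes were named after their values were seen.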
